A study of Mus musculus with 18 samples.

Results

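The mitochondrially encoded genes are the 37 genes whose mouse symbol begins with mt-, out of 55487 gene IDs in each deposited table. They comprise 13 messenger RNAs (mRNAs), 2 ribosomal RNAs (rRNAs) and 22 transfer RNAs (tRNAs), and they were chosen by name alone, without any measured value. Poly(A) RNA was sequenced in 18 libraries of mouse regulatory T (Treg) cells, sorted here as CD4+Foxp3+ cells, a T cell class that restrains immune responses. All cells came straight from a sort, from wild-type mice given no treatment. The only labelled difference between the groups is the organ: peripheral blood, lung, liver, spleen, lymph node and bone marrow, with 3 libraries each. The groups also differed in the level of genes of other blood cells, as given below. Sex, age, sorting gates and the number of animals behind a library are not stated, nor whether the 3 libraries of an organ came from separate animals, so the p-values measure the spread between libraries, which may be technical. The series sets peripheral blood beside the other organs, and the comparisons here follow that design.

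Mitochondria keep a small circular chromosome of their own. Its mRNAs encode core subunits of respiratory chain complexes I, III and IV and of ATP synthase, and its rRNAs and tRNAs serve the mitochondrial ribosome that translates them, while every other mitochondrial protein is encoded in the nucleus. Both strands are transcribed into long precursor RNAs that are cut into single genes, and most of the resulting mRNAs and rRNAs receive short poly(A) tails. Treg cells are known for their reliance on oxidative phosphorylation, the ATP production that these complexes carry out.

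Before the levels can be read, the sequences matter, because 7 of the 13 mitochondrial mRNAs have an annotated pseudogene in a block of nuclear DNA on chromosome 1 that matches them at 99% identity or more over at least 100 bases. The start of the cytochrome c oxidase gene mt-Co3 and of its copy Gm28437 show a pair without any difference over 783 bases, with the start codon in capitals. Both are given 5′ to 3′ from GENCODE M21 transcripts in the GRCm38 (mm10) build, mt-Co3 from chrM:8607-8666 on the plus strand and Gm28437 from chr1:24613912-24613971 on the minus strand.
mt-Co3: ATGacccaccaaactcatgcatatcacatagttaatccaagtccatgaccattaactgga
Gm28437: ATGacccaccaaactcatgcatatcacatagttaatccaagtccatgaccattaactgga
The complex I gene mt-Nd3 (chrM:9459-9518, plus strand) and its copy Gm28438 (chr1:24613060-24613119, minus strand) differ at a single base of 345, the substitution T3C counted from the first base of mt-Nd3, which is in capitals.
mt-Nd3: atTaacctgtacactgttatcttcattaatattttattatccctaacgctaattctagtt
Gm28438: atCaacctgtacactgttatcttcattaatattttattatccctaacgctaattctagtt
The cytochrome c oxidase gene mt-Co1 (chrM:6390-6449, plus strand) and Gm29216 (chr1:24616129-24616188, minus strand) likewise differ at a single base over 483, A1066T counted from the first base of mt-Co1, in capitals here.
mt-Co1: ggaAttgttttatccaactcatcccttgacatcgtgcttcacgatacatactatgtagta
Gm29216: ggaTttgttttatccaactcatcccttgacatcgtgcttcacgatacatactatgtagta
The other pairs are identical over their whole aligned length: mt-Co2 with Gm28661 over 681 bases, mt-Atp6 with Gm10925 over 678, mt-Nd4l with Gm10222 over 294 and mt-Nd4 with Gm28439 over 876 of its 1378 bases. The 6 mRNAs without such a copy are mt-Nd1, mt-Nd2, mt-Nd5, mt-Nd6, mt-Cytb and mt-Atp8. A further 14 genes resembled members at 85% to 99% identity, and none of them exceeded 3.8 TPM (the deposited unit, a length-normalised share of the library total) in any library.

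Reads from an identical stretch cannot be assigned to either gene, and the deposited tables split them differently from library to library. In the liver, mt-Nd3 was listed at 0, 0 and 1313 TPM. After the TPM of Gm28438 was added, weighted by the length of the copy relative to the gene, the same 3 libraries held 1153, 1503 and 1467 TPM. In the liver the coefficient of variation thus fell from 173% to 14.0%. For mt-Co3, the deposited values in blood were 1763, 1565 and 3120 TPM and the combined values 9457, 9130 and 9212, with a coefficient of variation of 39.4% before and 1.8% after. For mt-Atp6 in lung, the deposited 2279, 5624 and 2990 TPM became 16140, 15740 and 14370. Combined values of these genes therefore lay much closer together within an organ than the deposited ones.

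The share of the combined level that was listed under the nuclear copy also moved with the organ. For mt-Co2 it was 0.1% in spleen and 37.1% in lymph node, and for mt-Co3 31.7% in liver and 85.5% in lymph node. Gm10925 held 61.3% (spleen) to 86.5% (lymph node) of the combined level of mt-Atp6. For mt-Nd4l the organ means lay between 46.2% and 58.7%, whereas Gm28439 never exceeded 9.8% of mt-Nd4 and Gm29216 never exceeded 1.4% of mt-Co1 in any library. Differences between organs in the deposited level of mt-Co2, mt-Co3, mt-Atp6, mt-Nd3 and mt-Nd4l are therefore uncertain, and combined levels are given for the 7 genes below wherever a level is described. Adding the copies was chosen after the data had been seen, and the counts from the deposited values stand beside it.

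**Figure D1:**
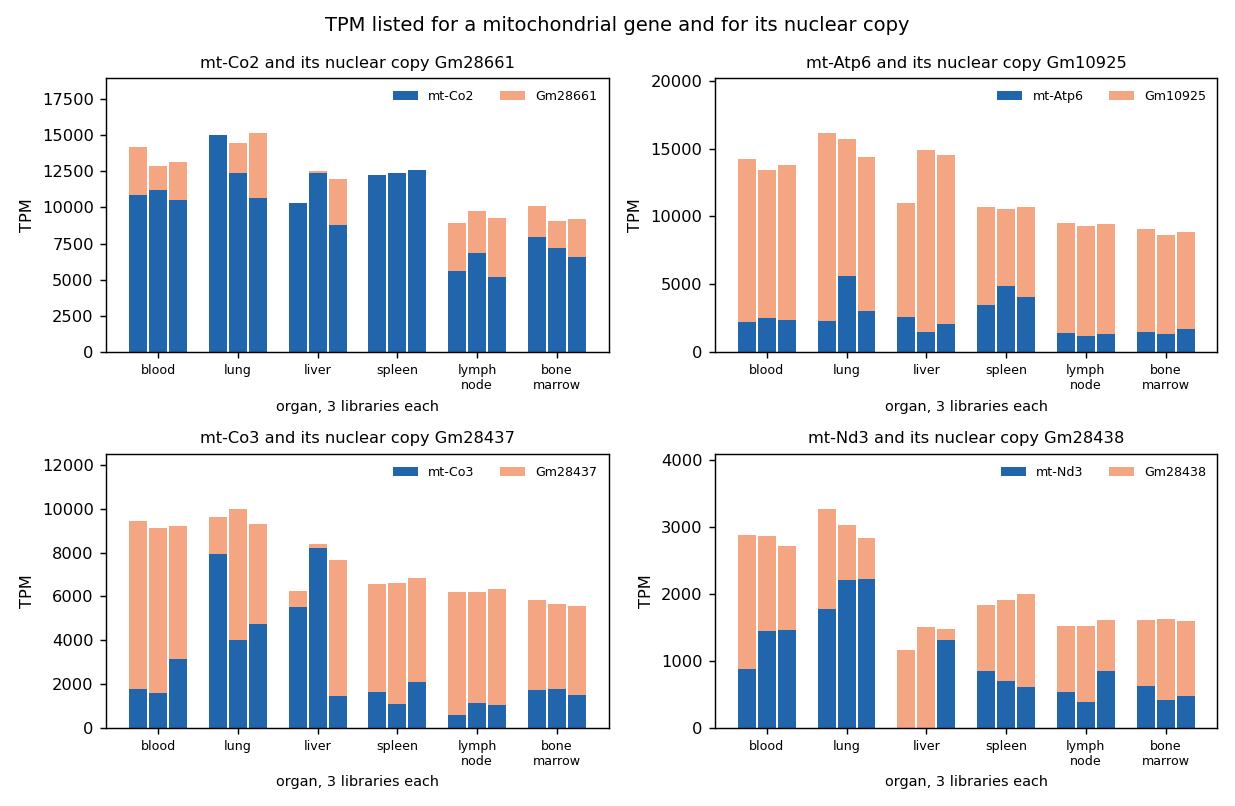
Stacked bars give the TPM listed for a mitochondrial gene (blue) and for its nuclear copy (orange, scaled to the length of the gene) in each of the 3 libraries of 6 organs, for mt-Co2, mt-Atp6, mt-Co3 and mt-Nd3. Bar heights are similar within an organ while the split differs, as for mt-Nd3 in liver, where 2 of 3 libraries list the whole signal under Gm28438.

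Neighbouring genes also share bases. The 3′ end of mt-Atp8 (chrM:7898-7969, plus strand) contains the first 43 bases of mt-Atp6, shown in capitals, and both encode subunits of ATP synthase, read from a shared mRNA in different frames.
mt-Atp8 end: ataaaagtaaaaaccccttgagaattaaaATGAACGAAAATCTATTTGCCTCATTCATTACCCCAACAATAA
The genes mt-Nd4l and mt-Nd4, both complex I subunits, overlap by 7 bases in the same manner (chrM:10144-10173, plus strand, overlap in capitals).
mt-Nd4l end: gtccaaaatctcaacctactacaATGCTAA
The gene mt-Nd6 lies on the opposite strand to the other 12 mRNAs and shares 14 bases with the end of mt-Nd5. The libraries were directional, but whether strand was used in counting is not given in the sources used here, so reads of mt-Nd6 and of the transcripts opposite to it cannot be told apart. Finally, the genes mt-Co3, mt-Nd4 and mt-Cytb end on a bare T (capital), which the poly(A) tail is known to complete to a stop codon. These 3 ends are given on the plus strand, at chrM:9360-9390, chrM:11514-11544 and chrM:15258-15288.
mt-Co3 end: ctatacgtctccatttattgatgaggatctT
mt-Nd4 end: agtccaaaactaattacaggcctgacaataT
mt-Cytb end: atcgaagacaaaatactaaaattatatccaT

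The cell type was checked against its defining genes. Foxp3 lay between 88.6 (blood) and 239 TPM (lymph node) as organ means, Cd3e between 277 and 691 and Cd4 between 155 and 403, with blood lowest for each. Blood was not lowest for Il2ra, at 101 TPM against 57.1 in marrow, 76.2 in lung and 84.3 in liver. Il2ra was higher in spleen (128 TPM) and lymph node (234 TPM). The summed level of 20 general T cell genes was 3289 TPM in blood and between 5092 and 7748 TPM in the other organs. That of 8 Treg genes was 597 TPM in blood and between 1130 (marrow) and 3447 TPM (lung). Ctla4 alone was at 134 TPM in blood and 1486 TPM in lung. Genes of other blood cells were also present: 14 neutrophil and monocyte genes summed to 27688 TPM in blood, 38824 in marrow and at most 1735 elsewhere, and 10 platelet genes to 2362 TPM in blood and at most 126 elsewhere. TPM keeps no sequencing depth, so the depth is unknown. Between 14314 and 19797 genes were above 0 per library, fewest in liver, and no 2 tables were identical.

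All 22 mitochondrial tRNAs were listed at 0 in all 18 libraries. They are 59 to 75 bases long, and mt-Tl1 (leucine, chrM:2676-2750) and mt-Ts2 (serine, chrM:11613-11671), both on the plus strand, show the longest and the shortest.
mt-Tl1: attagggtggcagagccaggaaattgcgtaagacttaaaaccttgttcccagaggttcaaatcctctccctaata
mt-Ts2: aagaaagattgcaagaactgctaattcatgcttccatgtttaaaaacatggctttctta
None of the 831 genes of that length, in or outside the mitochondrion, was above 0 in any library, and the shortest gene with a value was 168 bases long. The zeros therefore hold for short RNAs in general in these tables and say nothing about tRNA levels in Treg cells. The other 15 members passed the filter on low values, a mean that reached 1 TPM in some organ, and all but mt-Nd3 were above 0 in every library.

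Mitochondrial RNA made up a large part of these libraries. The gene mt-Atp8 had the highest TPM of all genes in 15 of the 18 libraries, and S100a9 led the 3 bone marrow libraries. As deposited, the 13 mRNAs held 7.20% to 7.22% of the total in blood, 7.77% to 8.57% in lung and 5.74% to 7.60% in liver. They held 5.59% to 5.68% in spleen, 4.795% to 4.996% in lymph node and 4.47% to 4.87% in marrow. With the nuclear copies the organ means were 10.3% (lung), 9.74% (blood), 8.15% (liver), 7.09% (spleen), 6.85% (lymph node) and 6.26% (marrow). Blood and lung thus carried the most mitochondrial mRNA per library, and the liver had the widest spread between libraries. These are bulk samples, in which fewer cells of a type and less RNA per cell cannot be told apart.

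The 2 rRNAs gave the largest differences among the members between blood and each other organ when nuclear copies were added. As deposited, mt-Nd3 in blood against liver was larger on the log2 scale, at 6.81 (SE 1.91, adjusted p = 0.011), where 2 of its 3 liver values were listed at 0. The gene mt-Rnr1 (ENSMUSG00000064337, chrM:70-1024, the RNA of the small mitochondrial ribosomal subunit) stood at 10977, 10147 and 10601 TPM in the 3 blood libraries. It reached 1434, 1315 and 1263 TPM in lung, 921, 1093 and 1196 in liver and 659, 645 and 667 in marrow. In spleen it was 474, 512 and 506 TPM and in lymph node 430, 445 and 438. All blood libraries lay far above every other library, lung lay above liver without overlap, and spleen and lymph node were lowest.

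The gene mt-Rnr2 (ENSMUSG00000064339, chrM:1094-2675, the RNA of the large subunit) followed the same order at the top. Its blood libraries held 12017, 11402 and 11639 TPM, against 2089, 2086 and 1930 in lung and 1099, 1356 and 1272 in liver. Marrow had 991, 935 and 943 TPM, lymph node 679, 658 and 648 and spleen 629, 622 and 640. Again the blood libraries did not overlap with any other organ.

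As ratios of means, mt-Rnr1 was 7.91 times higher in blood than in lung, 9.88 times higher than in liver, 16.1 times higher than in marrow, 21.3 times higher than in spleen and 24.2 times higher than in lymph node. For mt-Rnr2 the same ratios were 5.74, 9.41, 12.2, 18.5 and 17.7. By limma on log2(TPM + 1), with Benjamini-Hochberg adjustment over all 16694 genes tested, both rRNAs were called higher in blood (adjusted p under 0.05) against each of the 5 organs. Of all genes tested, 26.4% were called higher in blood against lung, 23.3% against liver, 20.1% against spleen, 16.4% against lymph node and 13% against bone marrow. The smallest of these differences was 2.52 (SE 0.06, adjusted p = 2.67e-14) for mt-Rnr2 against lung and the largest 4.59 (SE 0.07, adjusted p = 3.15e-16) for mt-Rnr1 against lymph node, both on the log2 scale. The 5 comparisons share the blood libraries and are not independent of each other. Among the other organs, lung against liver (0.33 for mt-Rnr1 and 0.72 for mt-Rnr2) and liver against marrow (0.69 and 0.37) were also called higher with the copies added, where 17.2% and 9.35% of genes were, while spleen and lymph node did not pass the test against each other (adjusted p = 0.114 for mt-Rnr1 and 0.534 for mt-Rnr2).

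**Figure D2:**
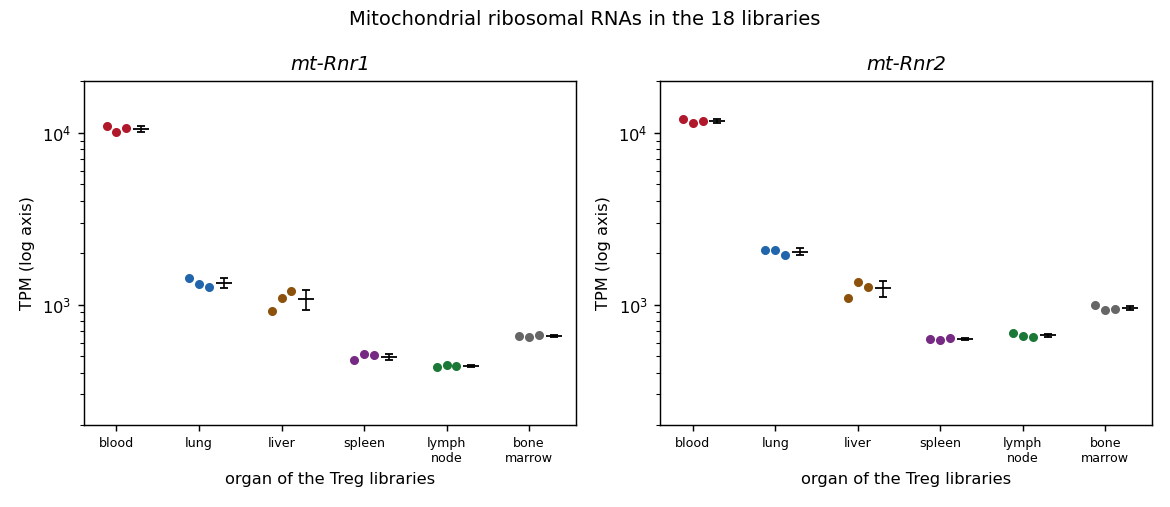
Each dot is 1 library and each black bar the mean with SD of 3 libraries of an organ, for mt-Rnr1 and mt-Rnr2, on a log axis in TPM. The blood libraries sit between 10147 and 12017 TPM, and every other library is at or below 2089 TPM.

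The rRNAs in blood also stood apart from the mitochondrial mRNAs. As deposited, without the nuclear copies in the total, they made up 23.6% ± 0.58 (SD, n = 3) of the TPM of all members in blood, and between 1.96% in spleen and 3.97% in lung. The mean of both rRNAs divided by the mean of the 6 mRNAs without a nuclear copy was 1.80 ± 0.10 (SD, n = 3) in blood and between 0.127 in lymph node and 0.253 in lung. When each library was scaled to its own mitochondrial mRNAs, with copies added, the rRNAs remained 2.57 to 4.07 higher in blood on the log2 scale over the 5 comparisons, and both were called in each. In that fit 26.8% of genes were called higher in blood against lung, 11.4% against liver, 10.6% against spleen, 10.3% against lymph node and 4.32% against bone marrow.

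The proportion of the 2 rRNAs to each other also differed between organs. The ratio of mt-Rnr1 to mt-Rnr2 was 0.905 ± 0.013 (SD, n = 3) in blood, 0.861 ± 0.071 in liver and 0.789 ± 0.035 in spleen. It was 0.688 ± 0.022 in marrow, 0.662 ± 0.024 in lymph node and 0.657 ± 0.028 in lung, so that the organs with the highest and the second highest rRNA level, blood and lung, lay at opposite ends. Blood and liver overlapped in this ratio, since liver library 3 had 0.941.

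Several measured features also differed between blood and the other organs, and their part in the rRNA difference was not tested. The 9 cytotoxic and natural killer genes had mean sums of 675 TPM in blood, 254 in lung and 138 in liver. Their mean sums were 130 TPM in spleen, 109 in marrow and 102 in lymph node. All 10 platelet genes were higher in blood against spleen, lymph node and bone marrow, and 9 of 10 against lung and liver. Their sum ranged from 2351 to 2379 TPM in blood, 119 to 131 in marrow and 26.5 to 103 in the other 4 organs, with Tubb1 at 222 TPM in blood and 0.6 or less elsewhere. Neutrophil and monocyte genes were at 27258 to 28069 TPM in blood and 38681 to 38942 TPM in marrow. The rRNA sums were 21549 to 22995 TPM in blood and 1581 to 1650 TPM in marrow. The 12 matched RNAs that carry no poly(A) tail, such as Rn7sk, summed to 17.2 to 68.5 TPM in blood, 48.5 to 230.3 in lung and 428 to 633 in liver. They summed to 76.1 to 122.6 TPM in lymph node, 199.1 to 245.9 in spleen and 261.1 to 316.5 in marrow. The organ mean of the 12 was lowest in blood, where the mitochondrial rRNAs were highest, and next lowest in lymph node, where the rRNA sum was lowest. Of the 12, 3 were at 0 in every library, and 7 were at 0 in lung and 7 in liver, so few genes carry these sums. Of the 8 tested, 25% were called lower in blood against lung, where 17.3% of all genes were. Against each other organ 37.5% were, beside 15.3% to 21% of all genes. Adenine made up 37.8% of mt-Rnr1 and 38.2% of mt-Rnr2, more than in every mRNA but mt-Atp8 (40.7%). The longest run of adenines in the mRNAs was 3 (mt-Nd6) to 8 bases (mt-Nd2). The longest run in mt-Rnr1 is 5 bases (chrM:679-738, plus strand) and in mt-Rnr2 7 bases (chrM:1462-1521, plus strand), in capitals.
mt-Rnr1: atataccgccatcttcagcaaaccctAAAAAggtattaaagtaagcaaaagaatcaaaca
mt-Rnr2: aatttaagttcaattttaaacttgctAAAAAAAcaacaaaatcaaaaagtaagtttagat

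Between blood and the other organs, the mitochondrial mRNAs with copies added differed far less than the rRNAs. This did not hold for every pair of organs: in lung against liver, mt-Nd3 (1.16) and mt-Nd2 (0.96) differed by more on the log2 scale than mt-Rnr2 (0.72). Over all 6 organs, 12 of the 13 passed limma's F test as deposited, and all 13 with the nuclear copies added. The exception, mt-Nd4l, had an adjusted p of 0.0665 as deposited and 4.2e-06 with Gm10222 added. The F test called 68% of all genes tested as deposited and 67.9% with copies added. Against liver, spleen, lymph node and bone marrow, most mRNAs were higher in blood. As deposited 7, 8, 10 and 9 of the 13 were called higher, and with copies added 10, 11, 13 and 13, beside the background shares given above for the deposited values and 23.3%, 20.1%, 16.4% and 13% with copies. Their median differences with copies added were 0.67, 0.49, 0.55 and 0.71 on the log2 scale, where the median of all genes was 0.07, 0, -0.15 and -0.11.

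Against lung, the mRNAs of blood did not share a direction. As deposited, none was called higher and 3 were called lower, mt-Nd1, mt-Nd2 and mt-Co3, where 26.4% of all genes were called higher and 17.3% lower. With copies added, mt-Nd4l was called higher and mt-Nd1 lower, where 17.2% of all genes were called lower, and the median over the 13 was -0.11. This count depended on single libraries: without any 1 library it ran from 0 to 2 higher and from 1 to 5 lower, and it moved by over 1.5 times without blood library 1 or 3, lung library 3, liver library 1 or 2 or marrow library 1. Scaling each library to 20 general T cell genes turned mt-Nd1 from -0.21 to 0.47 and mt-Nd2 from -0.22 to 0.46, in a fit where the median of all genes stood at 0.69 against 0.12 as deposited. The direction between blood and lung therefore follows the scaling.

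Lung in turn was higher than the remaining organs. As deposited 8 of 13 mRNAs were called higher in lung against liver, 9 against spleen, 11 against lymph node and 11 against bone marrow, and with copies added 10, 12, 12 and 13. Of all genes, 17.3%, 18%, 14.9% and 13.2% were called higher in lung as deposited, and 17.2%, 17.9%, 14.9% and 13.2% with copies added. By limma none of the 13 mRNAs was called lower in any of the 4, in either fit, where 17.6%, 22.8%, 27.4% and 30.3% of all genes were. These comparisons share the lung libraries.

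Complex I, which takes electrons from NADH, is encoded by 7 of the mRNAs. For mt-Nd1 (chrM:2751-3707) the 3 blood libraries held 3804, 3530 and 3668 TPM, lung 4350, 4318 and 4034, and the 12 libraries of the other organs 2005 to 2643. Blood and lung did not overlap with each other or with the rest. For mt-Nd2 (chrM:3914-4951) blood had 2741, 2790 and 2723 TPM, lung 3276, 3200 and 3126, liver 1338 to 1949 and marrow only 1374 to 1402. The ratio of lung to marrow means, 2.30, was the largest of any mRNA between these 2 organs.

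Combined with its copy, mt-Nd3 (chrM:9459-9806) stood at 2879, 2871 and 2714 TPM in blood and 3274, 3035 and 2835 in lung. Spleen had 1828 to 1998 TPM, marrow 1590 to 1620, lymph node 1513 to 1616 and liver 1153 to 1503, the lowest level of this gene in any organ. The combined mt-Nd4l (chrM:9877-10173) was 4167, 3813 and 4099 TPM in blood, 3834, 3411 and 2567 in lung and 3257, 3142 and 3165 in lymph node, where its level did not differ from lung by the test (adjusted p = 0.942). It was lowest in spleen, at 2006, 1834 and 2179 TPM. The call of mt-Nd4l as higher in blood than lung (0.32, SE 0.11, adjusted p = 0.0266 with copies) was lost without blood library 1, blood library 3 or lung library 3, and the call against lymph node (0.34, adjusted p = 0.0231) without blood library 1 or 3 or lymph node library 2 or 3.

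The combined mt-Nd4 (chrM:10167-11544) held 3809, 3682 and 3704 TPM in blood and 3582, 3544 and 3254 in lung. Lymph node followed with 2589 to 2642 TPM, then liver with 1947 to 2630, spleen with 2284 to 2290 and marrow with 2058 to 2181. For mt-Nd5 (chrM:11742-13565) blood libraries at 1980, 1879 and 1893 TPM overlapped with those of lung at 1934, 1929 and 1865. Lymph node was intermediate at 1514 to 1527 TPM, and spleen, marrow and liver lay between 880 and 1162. The level of mt-Nd5 in spleen stood at -0.45 against lymph node on the log2 scale (adjusted p = 0.000406 with copies added), where 9.82% of genes were called in that direction.

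The remaining complex I gene, mt-Nd6 (chrM:13552-14070, minus strand), broke this order. Spleen libraries held 2668, 2511 and 2549 TPM, lung 2490, 2546 and 2320 and blood 2261, 2239 and 2278. Lymph node was at 1535, 1531 and 1547 TPM, marrow at 1445, 1400 and 1373 and liver at 1103, 1548 and 1554. Spleen and lung overlapped at the top, whereas for each of the other complex I mRNAs every spleen library lay below every blood and lung library. Of the 7 complex I mRNAs, blood was called higher for 7 against liver, 6 against spleen, 7 against lymph node and 7 against marrow with copies added, and mt-Nd6 against spleen, at -0.19 (SE 0.09, adjusted p = 0.127), was the exception.

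Complex III, which passes electrons to cytochrome c, has a single mitochondrial subunit, mt-Cytb (chrM:14145-15288). Blood libraries at 5084, 4735 and 4778 TPM overlapped with those of lung at 4894, 5138 and 4650, a difference of -0.01 on the log2 scale (SE 0.07, adjusted p = 0.961). Lymph node had 3891 to 3945 TPM and spleen 3737 to 3777, while liver had 2608 to 3443 and marrow 2779 to 2966. Blood was called higher than each of these 4 organs, by 1.24 times (lymph node) to 1.70 times (marrow) as a ratio of means.

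Complex IV, cytochrome c oxidase, which hands electrons to oxygen, is represented by mt-Co1, mt-Co2 and mt-Co3. The combined mt-Co1 (chrM:5328-6872), the catalytic subunit, was 13829, 12270 and 12910 TPM in blood, 13632, 13314 and 11715 in lung and 10303, 12710 and 11940 in liver. Lymph node, marrow and spleen ran from 9316 to 10248 TPM. Blood and liver overlapped for this gene, and the difference, 0.16 (adjusted p = 0.062 with copies), did not pass the test. The combined mt-Co2 (chrM:7013-7696) was 14166, 12893 and 13154 TPM in blood, 15056, 14435 and 15153 in lung and 12256, 12394 and 12631 in spleen, with liver at 10279 to 12547, marrow at 9063 to 10081 and lymph node at 8944 to 9774. Spleen was not called different from blood (0.11, adjusted p = 0.197), and only 0.1% of its combined value in spleen was listed under Gm28661.

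For mt-Co3 (chrM:8607-9390) the combined levels were 9130 to 9457 TPM in blood, 9315 to 10016 in lung and 6273 to 8394 in liver. Spleen had 6561 to 6851 TPM, lymph node 6190 to 6365 and marrow 5544 to 5832. The deposited values of mt-Co3 had placed blood 1.38 below lung on the log2 scale (SE 0.50, adjusted p = 0.0359), and the combined values placed it 0.06 below (adjusted p = 0.547). This call thus depended on how reads were split between mt-Co3 and Gm28437.

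ATP synthase, which makes ATP from the proton gradient, has mt-Atp8 and mt-Atp6 as its mitochondrial subunits, and mt-Atp8 had the highest TPM of the 13 in every organ. Both genes are read from a shared mRNA, so this is a rank of TPM per gene, not of separate mRNAs. At 204 bases mt-Atp8 is the shortest of the 13, and TPM is normalised by length. For mt-Atp8 (chrM:7766-7969) blood held 20881, 23144 and 21016 TPM, lung 23209, 21465 and 25492 and liver 17513, 26811 and 21065, with full overlap between these organs. Lymph node had 13997 to 15443 TPM, marrow 12921 to 14375 and spleen 12834 to 14219, all below the blood libraries. The combined mt-Atp6 (chrM:7927-8607) was 14216, 13442 and 13793 TPM in blood, 16140, 15740 and 14370 in lung and 10971, 14913 and 14555 in liver. Spleen followed with 10523 to 10722 TPM, lymph node with 9263 to 9505 and marrow with 8648 to 9049. Neither gene was called between blood and liver, where complex I mRNAs were 1.59 to 2.07 times higher in blood. For mt-Atp6 against spleen, the deposited values gave -0.81 (SE 0.26, adjusted p = 0.0209) and the combined ones 0.38 (SE 0.08, adjusted p = 0.0016), so the direction turned when Gm10925 was added.

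**Figure D3:**
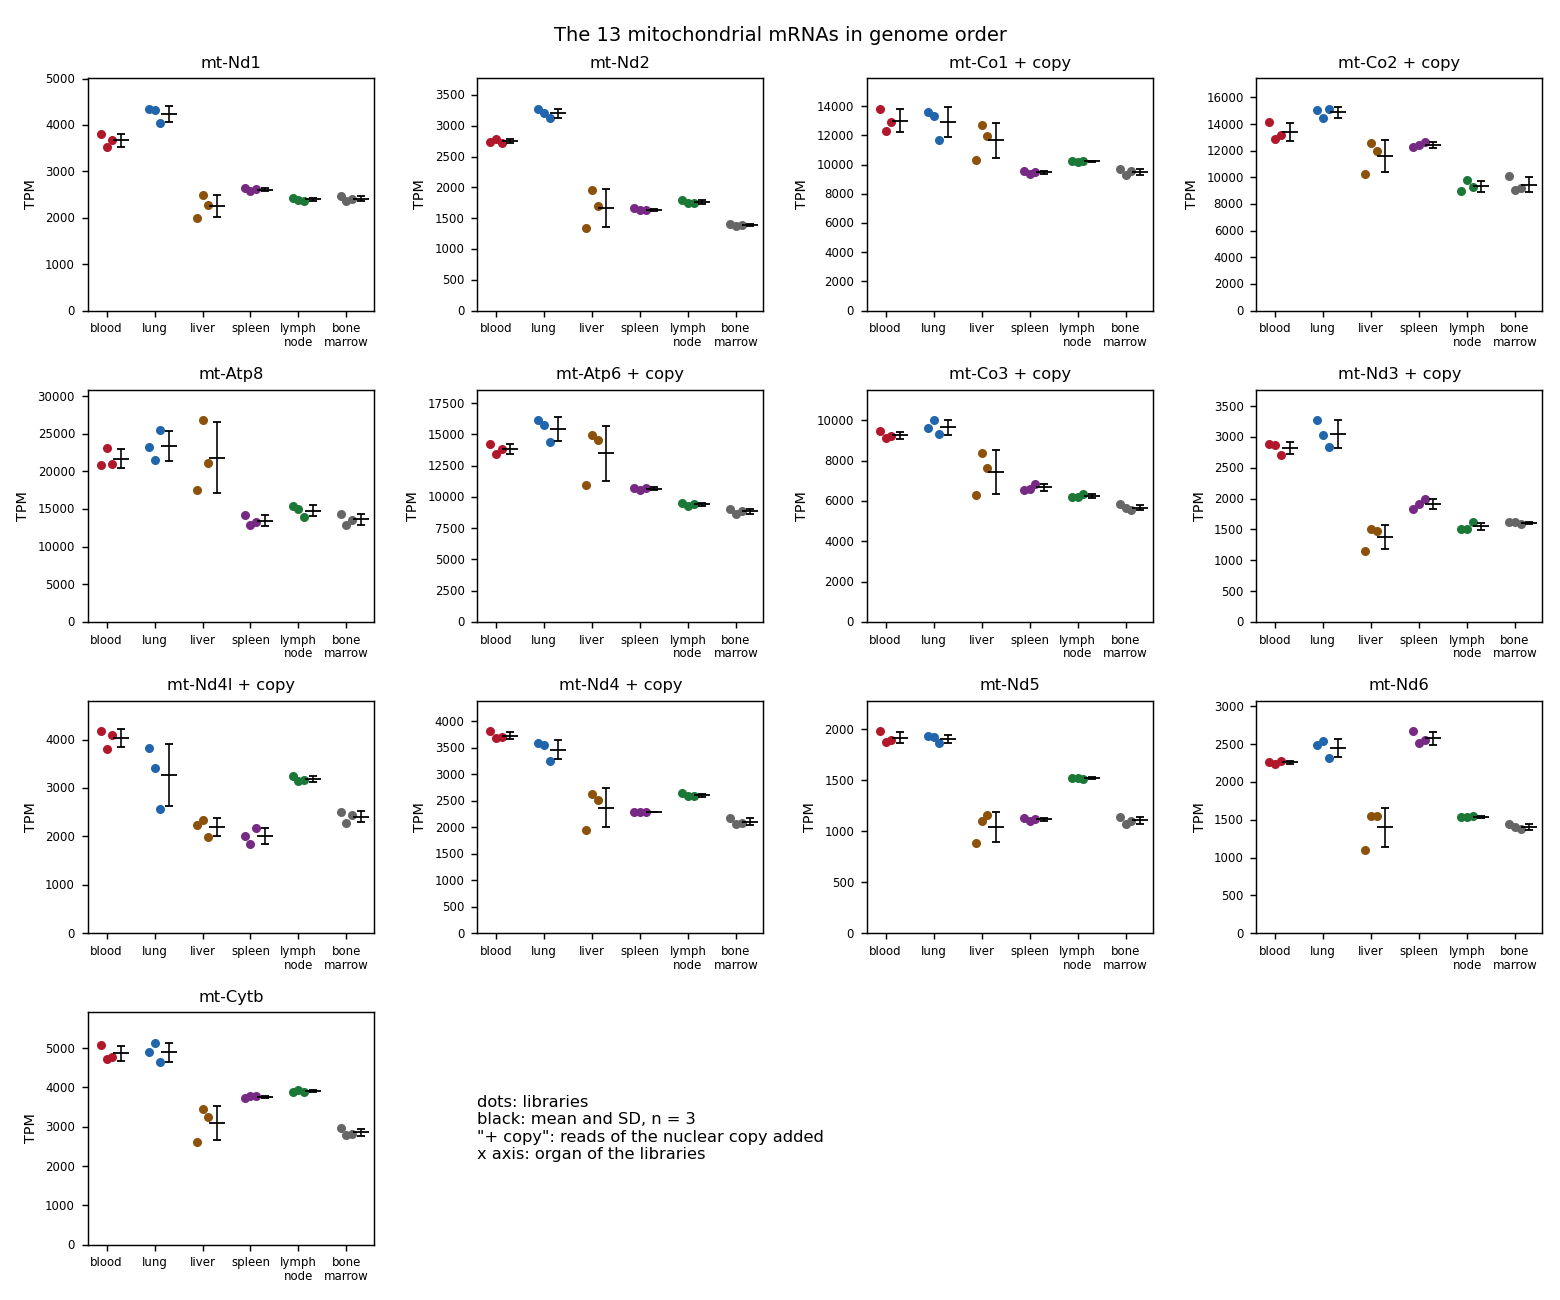
Dots are libraries and black bars the mean with SD of 3 libraries per organ, in TPM on axes from 0, for the 13 mitochondrial mRNAs in genome order, with nuclear copies added where the panel says so. Blood and lung are high for mt-Nd1, mt-Nd2 and mt-Nd3, whereas for mt-Nd6 the spleen libraries, at 2511 to 2668 TPM, lie in the range of lung or above it.

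Since the mRNAs of one strand come from shared precursors, their proportions to each other were compared by scaling each library to the geometric mean of its mitochondrial mRNAs. As deposited, where mt-Nd3 was left out of the reference because of its zeros, all 13 mRNAs passed the F test over the organs, and they also did with copies added. In these fits 84.1% and 81.9% of all genes passed. The patterns described are those of mt-Nd6 in spleen, of the liver and of mt-Nd4l in spleen, chosen after the values were seen.

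The first concerned mt-Nd6 in spleen. The ratio of mt-Nd6 to mt-Nd5 was 2.37, 2.28 and 2.27 in spleen, and between 1.00 and 1.41 in the 15 other libraries, without overlap. The ratio to mt-Cytb was 0.714, 0.666 and 0.675 in spleen and at most 0.509 elsewhere. Scaled to the mitochondrial mRNAs with copies added, mt-Nd6 was lower in blood than in spleen by 0.69 on the log2 scale (adjusted p = 2.6e-08). It was also higher in spleen against lymph node by 0.73 (adjusted p = 1.8e-07), against marrow by 0.67 (adjusted p = 7.1e-08), against lung by 0.63 (adjusted p = 6.9e-08) and against liver by 0.86 (adjusted p = 4.5e-09). In spleen against lymph node, 3.42% of all genes were called higher in this fit, and 3.03% in spleen against marrow. Of all genes, 38.7% were called lower in blood against spleen, 48.7% in lung against spleen and 13.7% in liver against spleen. The level of mt-Nd5 in spleen, 1104 to 1127 TPM, lay within the range of the liver libraries and overlapped with those of marrow.

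The second concerned the liver, where the mRNAs of complexes I and III were low against those of ATP synthase. With copies added, the 7 complex I genes held 15.5%, 14.7% and 15.2% of the mitochondrial mRNA TPM in liver and 19.7% to 22.0% in the 15 other libraries. The 2 ATP synthase genes held 41.5%, 45.2% and 42.9% in liver and 33.7% to 39.6% elsewhere. The complex III gene mt-Cytb held 3.80%, 3.73% and 3.92% in liver and 4.56% to 5.75% elsewhere, also without overlap. Complex IV showed no such gap in its share, at 36.4% to 39.1% in liver and 35.6% to 40.9% elsewhere. Scaled to the mitochondrial mRNAs, blood was lower than liver for mt-Atp8 by 0.53 (adjusted p = 6.9e-05), for mt-Atp6 by 0.49 (adjusted p = 1.1e-08) for mt-Co1 by 0.38 (adjusted p = 7.6e-07), for mt-Co2 by 0.33 (adjusted p = 3.85e-05) and for mt-Co3 by 0.22 (adjusted p = 0.000121), where 39% of genes were called lower. It was higher for mt-Nd3 by 0.50 (adjusted p = 5.6e-07), mt-Nd5 by 0.34 (adjusted p = 2.4e-05) and mt-Nd4l by 0.34 (adjusted p = 0.0168), the last of which was lost without blood library 3 or liver library 3.

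Liver library 1 was the lowest of its organ for every mRNA but mt-Nd4l in the combined values, so the spread of levels within liver was wide while the proportions were not. Liver libraries also had the highest sum of 7 erythroid genes, 10932 to 11969 TPM against 72.8 to 6549 in the others, and the highest sum of 12 immediate early and heat shock genes, 8898 to 10046 TPM against 773 to 7096. The 11 hepatocyte genes summed to 31.4 to 37.6 TPM in liver, 3 of them at 0, with Alb at 5.4 TPM. Their sums were higher in blood (147.6 to 170.8 TPM) and lung (95.4 to 165.3). They were lower in marrow (23.5 to 29.7 TPM), spleen (16.8 to 23.3) and lymph node (0.7 to 4.2). The part of these features in the liver proportions was not tested.

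The third concerned mt-Nd4l, which was low in spleen against lymph node, marrow and blood. Scaled to the mitochondrial mRNAs with copies added, it stood at -0.68 in spleen against lymph node (adjusted p = 0.000796) and at -0.47 in spleen against marrow (adjusted p = 0.00427), where 7.23% and 27.1% of genes were called lower. It was higher in blood than in spleen by 0.50 (adjusted p = 0.00141). These 3 calls held without any 1 library, and 56.1% of the combined level in spleen was listed under Gm10222. In the same fit, mt-Nd4l was not called in lung against spleen (0.13, adjusted p = 0.324) or in liver against spleen (0.16, adjusted p = 0.309).

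Further differences in the scaled data involved mt-Nd5 and mt-Nd2. Scaled to the mitochondrial mRNAs, mt-Nd5 was higher in lymph node against spleen by 0.46 (adjusted p = 2e-05) and against marrow by 0.27 (adjusted p = 0.000498), and lung had more mt-Nd2 than marrow by 0.44 (adjusted p = 7.22e-07). The shares of genes called in these directions were 7.23%, 3.94% and 3.9%. Blood against bone marrow gave 2 higher and 3 lower mRNAs, and blood against lymph node 3 and 3, with medians at 0 and 0.03, where 4.32% and 10.3% of genes were called higher and 58.8% and 49% lower. The calls of mt-Nd1 (0.10) and mt-Nd2 (0.13) as higher against lymph node were lost without blood library 3 or any lymph node library, mt-Nd1 also without any spleen or marrow library, blood library 1 or lung library 2 and mt-Nd2 also without blood library 2. That of mt-Nd1 (-0.10) as lower against marrow was lost without any blood or marrow library.

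**Figure D4:**
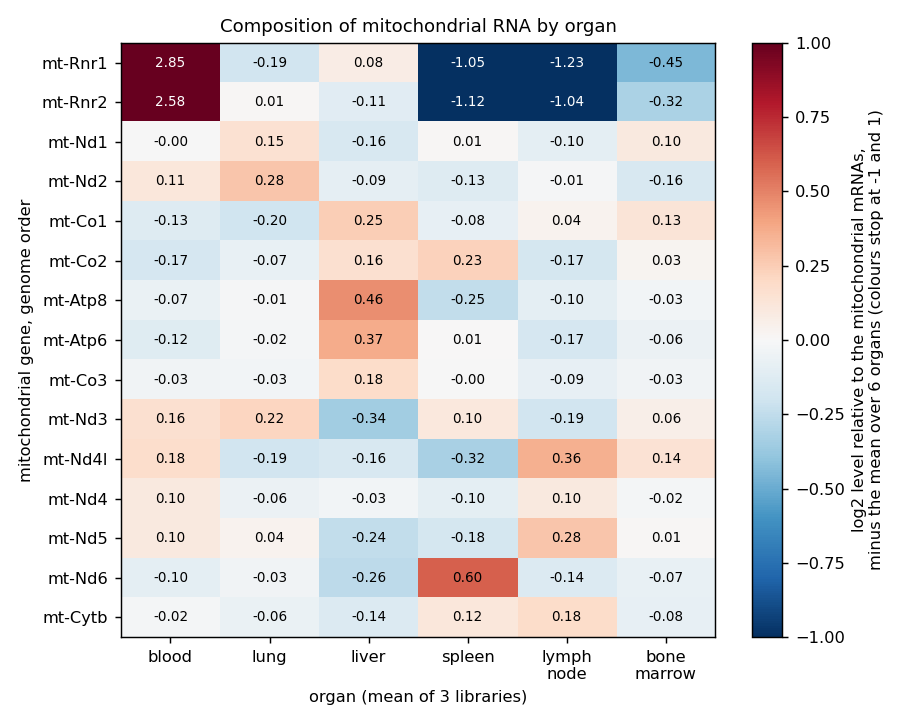
Each cell gives the mean log2 level of a mitochondrial gene in 1 organ after each library was scaled to its mitochondrial mRNAs with copies added, minus the mean of that gene over 6 organs. The 2 rRNAs in blood, mt-Nd6 in spleen, mt-Atp8 and mt-Atp6 in liver and mt-Nd4l in lymph node are in red, and mt-Nd3 in liver is the lowest mRNA cell.

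In blood against spleen, lymph node, marrow and liver, the nuclear partners of these genes did not follow the mitochondrial mRNAs on the TPM scale. The direction of these nuclear genes turned when libraries were scaled to T cell genes, as given at the end. None of 36 nuclear complex I genes was called higher in blood against spleen, lymph node, marrow or liver, and 24, 12, 13 and 5 were called lower, beside 15.3%, 21%, 18.8% and 16.1% of all genes. Against lung 6 were higher and 8 lower, where 26.4% and 17.3% of all genes were. Their median differences were -0.57, -0.34, -0.30, -0.02 and -0.10 in that order. The median of the mitochondrial mRNAs against lung, with copies added, was -0.11. Ndufv3, an accessory subunit, was at 85.3 TPM in blood and 117 to 154 in the other organs, and it was called lower in blood in all 5 comparisons, as were Ndufc2 and Ndufs3.

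The counts of genes called lower that follow are to be read against the shares of all genes called lower in blood, 15.3% against spleen, 21% against lymph node, 18.8% against marrow, 16.1% against liver and 17.3% against lung. Of 17 nuclear ATP synthase genes tested, 13 were called lower in blood against spleen, 9 against lymph node, 11 against marrow and 7 each against liver and lung, and at most 1 was called higher in any of them. These are 76.5%, 52.9%, 64.7%, 41.2% and 41.2% of the list. Atp5b, the catalytic beta subunit, was at 502 TPM in blood and 585 to 804 elsewhere, and Atp5e at 382 TPM in blood and 1083 in spleen. Of 9 nuclear complex III genes, 6, 4, 3, 1 and 3 were lower in blood against spleen, lymph node, marrow, liver and lung, and none was higher. Of 11 nuclear complex IV genes, 6, 1, 4, 2 and 1 were lower, which is below the share of all genes against lymph node (9.09%) and lung (9.09%), and Cox5a was the gene called higher in blood against all 5 organs, at 204 TPM against 125 to 159. The 4 genes of complex II, which has no mitochondrial member, gave 2, 3, 3, 0 and 1 lower and none higher.

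The 78 nuclear genes of mitochondrial ribosomal proteins, which bind the rRNAs described above, were called lower in blood at a higher share than all genes against spleen (37.2%), lymph node (38.5%) and marrow (24.4%), and at a lower share than all genes against liver (12.8%) and lung (11.5%). In blood against spleen, lymph node and marrow, 29, 30 and 19 were called lower and 1 higher each, and against liver and lung the counts were 10 and 9 lower and 8 and 9 higher. Their sum was 2842 to 2873 TPM in the blood libraries and 2838 to 4182 TPM in the others. Lung overlapped with blood in this sum, at 2838 to 2995 TPM, while its mean rRNA sum was 3372 TPM against 22261 in blood. A low sum of these proteins' mRNAs was thus not particular to blood. Mrpl33 was the exception called higher in blood against all 5 organs, at 208 TPM against 99.9 to 169.

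Of 19 genes of mitochondrial DNA copying and transcription, 0 to 4 were called higher in blood and 2 or 3 lower in each comparison. These are 0% to 21.1% higher and 10.5% to 15.8% lower. In each comparison both shares were below those of all genes, which were 13% to 26.4% higher and 15.3% to 21% lower. Tfam, which packages the mitochondrial chromosome and starts its transcription, was at 63.4 TPM in blood and 51.5 to 63.2 elsewhere. Polg, the mitochondrial DNA polymerase, was at 68.6 TPM in blood and 80.6 to 116 elsewhere. Of 24 genes of mitochondrial RNA processing and decay, 10 were called lower in blood against lymph node (41.7%, where 21% of all genes were), 6 against spleen (25% against 15.3%), 2 against marrow, 0 against liver and 3 against lung, and 2, 1, 1, 2 and 4 were called higher in these comparisons. The shares lower against marrow (8.33%), liver (0%) and lung (12.5%) were below those of all genes, as were the shares higher in every comparison. Among those lower against lymph node and spleen was Rexo2, a nuclease of short RNAs, at 108 TPM in blood, 160 in spleen and 172 in lymph node. Of 9 tested regulators of mitochondrial biogenesis, Gabpb1 was called lower in blood against all 5 organs, at 30.7 TPM against 166 in lung. Of 21 tested genes of mitochondrial mass and mitophagy, Bnip3, a mitophagy receptor, was higher in blood in all 5, at 25.2 TPM against 7.5 to 12.5, and the chaperonin Hspe1 lower in all 5, at 129 TPM against 169 to 319.

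**Figure D5:**
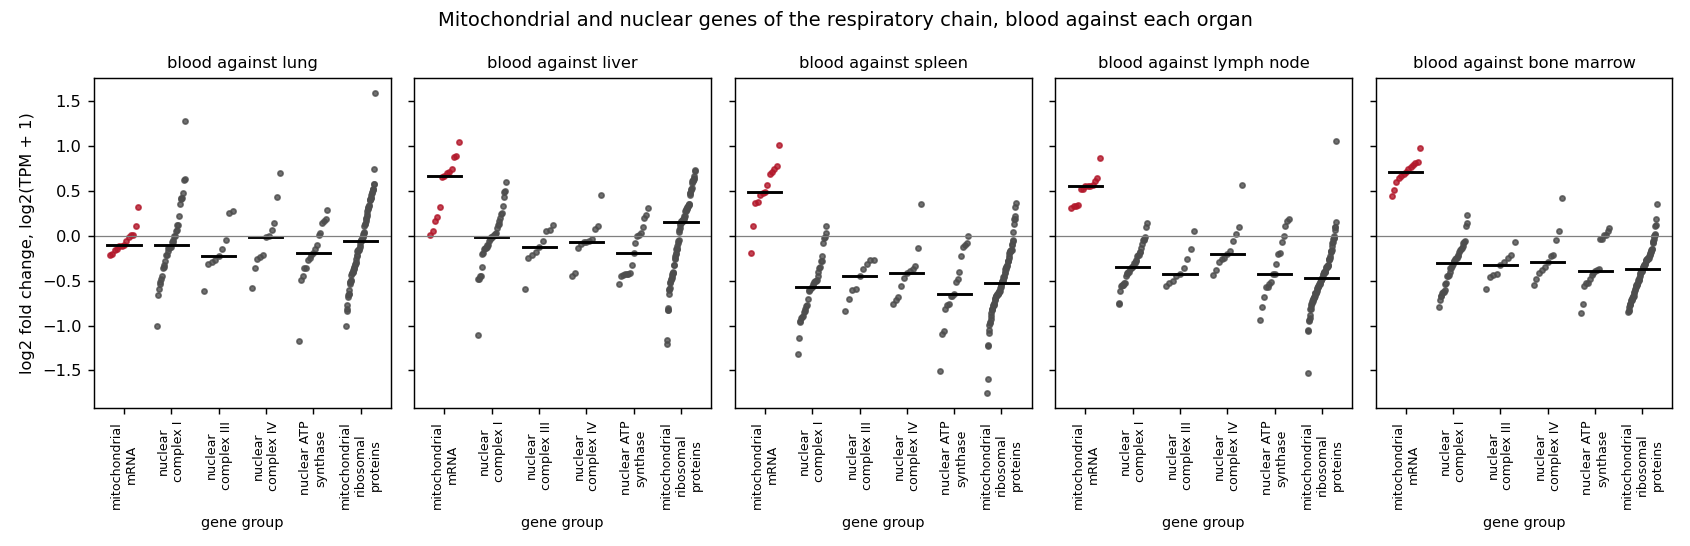
Each dot is a gene and each black bar the median of its group, on the scale of log2 fold change of log2(TPM + 1), with blood set against each of 5 organs. Mitochondrial mRNAs (red, copies added) lie above 0 for most organs other than lung, with medians of 0.49 to 0.71, and the nuclear groups lie at or below 0 in spleen, lymph node and marrow, with medians from -0.65 to -0.20.

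The direction of the nuclear groups follows the scaling as well. When libraries were scaled to the 20 general T cell genes, the all-gene medians rose to 0.69 (lung), 0.92 (liver), 0.72 (spleen), 0.77 (lymph node) and 0.36 (marrow). The nuclear complex I medians then turned positive, at 0.57, 0.98, 0.30, 0.80 and 0.26. The mitochondrial mRNAs with copies added had medians of 0.57, 1.67, 1.37, 1.71 and 1.28 in that fit. Against lung their median lay below the all-gene median of 0.69, and against the other organs above the all-gene median. All 13 were called higher against each organ. The share of all genes called higher in that fit is not given here, so this count cannot be read as particular to the mRNAs.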

How the data were processed

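The authors deposited 1 table per library with a TPM value for each of 55487 Ensembl gene IDs. Per the submitters' processing notes, STAR, RSEM and mm10 were used. Versions, annotation and strand setting are not given in the sources used here. TPM sums to the same total in each library, so abundant RNAs lower all others, and it keeps no depth. Symbols came from GENCODE M21 (GRCm38), which matched 55141 IDs. Nuclear copies were found with BLAST 2.17.0, at 99% identity or more over at least 100 bases. In R 4.3.3, limma 3.58.1 was fitted to log2(TPM + 1), a scale that understates changes of low genes, on all 18 libraries with 1 mean per organ, moderated with a trend and robustly. The 16694 genes whose mean reached 1 TPM in any organ were tested, and p-values were adjusted by Benjamini-Hochberg over them, with a threshold of 0.05. For relative values each library was scaled to the geometric mean of 12 mitochondrial mRNAs, or of all 13 with copies added. The fit was tested on simulated data. The members and gene lists were chosen with earlier results of these data known. All 37 members were accounted for, members of at least 10 TPM in any organ got values by sample, and of other lists the named genes came from the 3 highest and up to 3 called the same way in all 5 blood comparisons. Python 3.11.15 was used for tables and figures. Alternatives covered scaling, filter, pseudocount, variance model, library choice and copies.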

Additional observations from a re-analysis of the deposited data

How the results depend on the processing

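The result that depended most on the processing was blood against lung. Of the 13 mitochondrial mRNAs, 0 were called higher as deposited, against 10 when scaled to general T cell genes, 2 with quantile normalization and 1 each with median of ratios, a total without mitochondrial genes and copies, library weights, copies added or only the 2 organs in the fit. The 3 called lower became 0 with T cell genes and 1 each with quantile normalization, no filter, no trend, the replicate block or copies added. With T cell genes, mt-Nd1 turned to 0.468 and mt-Nd2 to 0.456, and quantile normalization turned mt-Nd2 to 0.015. Against liver, T cell genes gave 12 higher in place of 7. Against spleen, the 1 lower became 0 with T cell genes or copies added, 2 without abundant classes or with library weights and 3 with only the 2 organs, and mt-Atp6 turned to 0.068 with T cell genes and 0.376 with copies added. The cause was not tested, except that adding copies changes the value by construction.

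Relative to each other, 4 mRNAs were called in blood against lung, 2 with the replicate block and 1 with mRNAs without a copy as reference. Against liver 11 became 7 with mt-Co1 alone, library weights or mRNAs without a copy, and against marrow 2 became 6 with mt-Co1 alone, 4 with weights and 5 with copies added. With mt-Co1 as reference, mt-Cytb in blood against lung turned to -0.022.

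The mRNA share in blood, lung, liver, spleen, lymph node and marrow was 8.7%, 10.2%, 8.22%, 7.57%, 6.3% and 5.8% of a total without abundant classes, and 9.74%, 10.3%, 8.15%, 7.09%, 6.85% and 6.26% with copies. Without members at 0 in any library it was 7.08% in blood and 5.56% in spleen. The rRNA share without abundant classes was 2.69%, 0.421%, 0.295%, 0.151%, 0.142% and 0.203%.

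Without 1 library, the counts in blood were 0 to 1 higher and 1 to 4 lower against lung, 6 to 8 and 0 to 1 against liver, 7 to 9 and 0 to 2 against spleen, 10 to 12 higher against lymph node and 9 to 10 against marrow. Counts relative to each other were 1 to 5, 7 to 11, 6 to 7, 3 to 4 and 2 to 3 in blood against lung, liver, spleen, lymph node and marrow. In the fit with copies added, the count against lung moved by over 1.5 times without blood library 1 or 3, lung library 3, liver library 1 or 2 or marrow library 1, and 1 was lower against spleen without liver library 1. Of 3800 alternatives to 133 called results, 3639 kept direction and call, 155 lost the call and 6 turned.

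The deviations of libraries with the same replicate number were hardly correlated (45 pairs, r from -0.034 to 0.03). Such correlations cannot exclude a shared animal or batch, so whether the numbers pair libraries stays undecided. Each library correlated best with its own number in 41 of 90 trials. Other planned settings left the counts within 1.5 times. Precision is limited by 3 libraries per organ and by an unknown depth.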
